A study of Mus musculus with 244 samples.

Results

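The genes described here are 40 genes of the cell division cycle, followed in the somatic cells of mouse ovarian follicles. They were chosen by name for their known roles, with earlier results of these data known, and all 40 were found among the 25122 genes of the count table. By role they divide into 15 genes of DNA replication, 13 of mitosis, 8 of the G1 phase and its passage into replication, and 4 inhibitors of cyclin-dependent kinases. The study isolated follicles from ovaries of CD-1 mice, an outbred stock, at postnatal day 6, and took oocytes and somatic cells from them singly for sequencing by SMART-Seq2, which reads along whole transcripts. No treatment, allele or transgene distinguished the cells, and the groups were the cell type and the stage of the follicle. Somatic cells, called pre-granulosa cells in primordial follicles and granulosa cells in growing ones, came from primordial (40 cells), transitioning (47), primary (56) and secondary follicles (42), and 59 oocytes served for contrast. The cells were compiled from several collections, follicles were released with liberase and dissociated with Accutase, and per the labels primary and secondary follicles stayed in Accutase for longer than primordial and transitioning ones.

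A cell that divides first commits itself in G1, where D-type cyclins with the kinases Cdk4 and Cdk6, and then E-type cyclins with Cdk2, lift the hold of the retinoblastoma protein on E2F transcription factors. Replication genes are then transcribed, origins that the MCM helicase has licensed fire, and later the mitotic genes are expressed, under cyclin B with Cdk1, until the anaphase-promoting complex ends mitosis. Pre-granulosa cells of resting primordial follicles are known for dividing rarely, and granulosa cells of growing follicles for dividing often.

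The metadata give the cells 6 plate numbers, called plates here, and the genes listed differ from plate to plate. A gene without a value in a cell is thus a gene its plate does not list. A second plate code in the metadata had 1 value in each somatic group of a plate. It had 3 values among the primordial and 2 among the primary oocytes of plate 1, and 4 among the transitioning oocytes of plate 4. Whether different groups of a plate share a code was not tested. Coordinates given after a gene's name are its span on GRCm38 in the GENCODE annotation. Plate 1 lists 21 of the 40 members, plate 2 lists 6, plate 3 lists 16, plate 4 lists 4, plate 5 lists 9 and plate 6 lists 10. A total of 27 members are listed on 1 plate alone, and 2 members, the mitotic cyclin gene *Ccnb2* and the inhibitor gene *Cdkn2c*, on all 6. Plate 1 holds somatic cells of all 4 stages (19 primordial, 8 transitioning, 5 primary and 5 secondary) and lists 9 replication and 9 mitosis members. Plate 5 holds 21 primordial, 19 primary and 26 secondary somatic cells and lists 5 of its 9 members from G1. Stages were therefore compared within plate 1 and within plate 5, and no value of 1 plate was set against another except for the 2 genes on every plate. Of the genes with 1 annotated transcript 99.7% are listed on every plate, against 30.8% of those with 2 or more, and all members but 1 have 2 or more. Whether a listed value covers all transcripts of its gene was not tested.

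The stretches before the start sites show what the replication and the mitosis members have in common beyond their roles. RefSeq promoter windows (GRCm38.p6) were matched to 31 of the 40 members, and the 250 bases before the start were searched on both strands for the E2F core TTCGCGC, its variant TTGGCGC, its variant TTCCCGC and its variant TTGCCGC, for CCAAT, and for the cell cycle homology region of 6 letters (TTTGAA or TTTAAA). An E2F core was present in 7 of 13 windows of replication members (53.8%), in 3 of 11 of mitosis members (27.3%) and in 7.89% of all 32851 windows of the same length. The cell cycle homology region was present in 8 of 11 mitosis windows (72.7%), in 2 of 13 replication windows (15.4%) and in 25.2% of all windows. CCAAT occurred in 90.9% of the mitosis and 69.2% of the replication windows, against 33.8% of all. In the member windows 1 E2F match overlaps a CCAAT match. A match is a description of letters, not a site shown to be bound. The windows of 1 replication member and 3 mitosis members on which the comparisons below turn are printed from 5′ to 3′, ending at the base before the start site, with every match on either strand in capitals:
Mcm5 (chr8:75109259-75109508, plus strand): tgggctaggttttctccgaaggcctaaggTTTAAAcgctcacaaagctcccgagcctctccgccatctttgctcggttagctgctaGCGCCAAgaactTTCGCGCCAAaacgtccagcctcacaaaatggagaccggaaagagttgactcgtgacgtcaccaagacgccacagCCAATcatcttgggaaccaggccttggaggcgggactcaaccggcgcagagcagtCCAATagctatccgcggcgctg
Ccnb2 (chr9:70421555-70421804, minus strand): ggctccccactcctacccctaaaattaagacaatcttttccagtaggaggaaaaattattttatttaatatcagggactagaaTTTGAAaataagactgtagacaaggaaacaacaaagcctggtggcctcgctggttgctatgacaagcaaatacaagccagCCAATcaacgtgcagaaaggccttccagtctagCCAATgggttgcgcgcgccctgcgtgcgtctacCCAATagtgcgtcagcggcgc
Plk1 (chr7:122159185-122159434, plus strand): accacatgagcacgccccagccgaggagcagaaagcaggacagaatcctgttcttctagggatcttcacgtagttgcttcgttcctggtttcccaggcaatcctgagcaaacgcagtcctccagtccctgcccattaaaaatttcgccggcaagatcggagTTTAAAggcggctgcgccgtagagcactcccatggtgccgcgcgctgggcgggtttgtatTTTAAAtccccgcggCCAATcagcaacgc
Top2a (chr11:99024190-99024439, minus strand): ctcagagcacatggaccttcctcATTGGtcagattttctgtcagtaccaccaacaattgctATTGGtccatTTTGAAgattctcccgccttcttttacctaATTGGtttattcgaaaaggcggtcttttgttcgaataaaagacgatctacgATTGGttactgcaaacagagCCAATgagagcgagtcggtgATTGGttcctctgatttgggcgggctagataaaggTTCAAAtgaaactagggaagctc

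In the window of *Mcm5*, a helicase subunit, all 3 kinds of match are present, with 3 E2F cores, 2 of them overlapping each other. The windows of *Ccnb2*, *Plk1* and *Top2a* hold 1 to 2 cell cycle homology regions and 1 to 6 CCAAT boxes each, and no E2F core of these letters.

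Depth varied widely. The estimated counts of a somatic cell summed to between 5150.2 and 409310, and on plate 1 the medians from primordial to secondary cells were 63070.5, 81408, 361900 and 311480. The share of reads on ribosomal RNA on that plate was at a median of 32.4% in primordial cells and between 10.9 and 16.1% in the other stages. Granulosa markers took 0.479% of the summed counts of primordial cells on plate 1, with *Amh* and *Fshr* at 0, and 1.73% in secondary cells, where all 7 listed were detected. Reads of 3 or more of 7 stroma markers were found in 2 of 19 primordial cells there and in none of the other stages. Over 0.1% of counts lay on oocyte markers in 5 of 19 primordial, 1 of 8 transitioning, 1 of 5 primary and 0 of 5 secondary cells. The title and the metadata of 2 cells disagree on the stage: transitioning cell 47 is primary in the metadata, and primary cell 56 is secondary. The part of all these cells in the results was not tested beyond the values given with them. The labels tie no cell to an animal or culture, so each stage on a plate is 1 sample, no test was made, and a level is the group's summed count of a gene per 1000000 of its counts over all genes (CPM), with its exact Poisson interval at 95%, a ratio has an exact binomial one, and a share of cells an exact Clopper-Pearson one. Where no cell had reads, 3 cells of the group were taken as the limit that a count of 0 allows. These intervals cover counting error only, and reads without molecular identifiers are not independent molecules.

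On plate 1 the replication genes stood higher in the somatic cells of transitioning, primary and secondary follicles than in those of primordial ones. Summed over the 9 listed members, single primordial cells ranged from 0 over a median of 29.9 to 2147 CPM, with 8 of 19 cells at 0. The transitioning cells lay between 0 and 6083 CPM around a median of 1472 CPM. In the 5 primary cells, numbered 1, 2, 3, 4 and 56 in the labels and given in that order throughout, the sums were 1712, 10.51, 6635, 1552 and 1799.6 CPM. Cells with much and cells with almost no replication transcript thus occurred side by side in those 2 groups, and both overlapped the primordial cells. The 5 secondary cells, numbered 1 to 5, held 8522, 11429, 2050.3, 10056 and 4287 CPM. All were high, and the lowest of them lay just under the highest primordial cell.

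**Figure D1:**
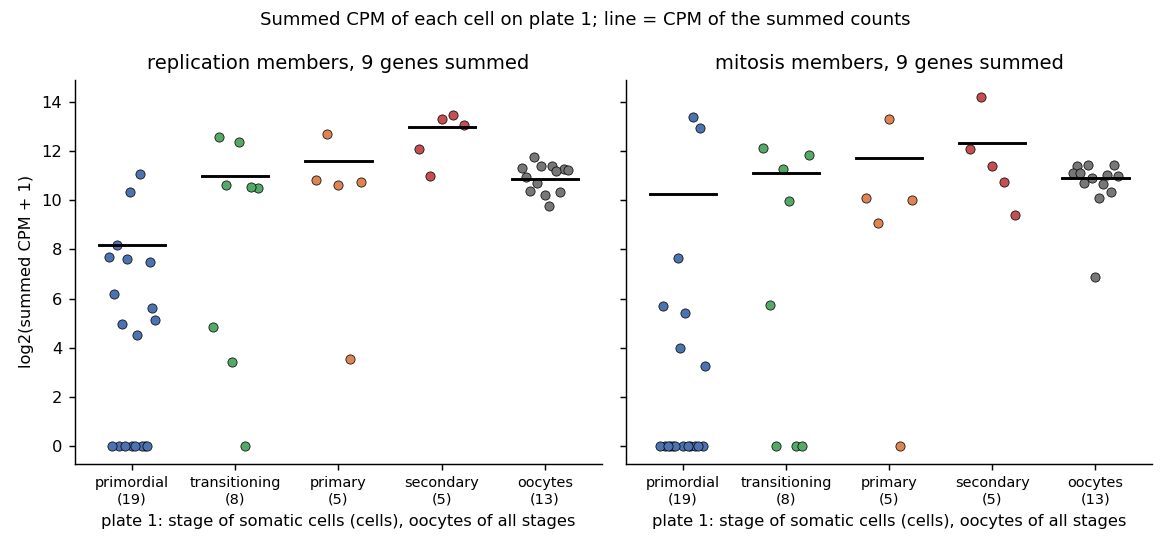
Summed CPM of the 9 replication members and of the 9 mitosis members on plate 1, for each somatic cell by follicle stage and for the oocytes, on a log axis that is linear near 0. Each point is 1 cell. Of the 19 primordial cells 8 lie at 0 for replication and 12 for mitosis, and the highest lie at 2147 and 10569.6 CPM. All 5 secondary cells lie at 2050.3 CPM or more for replication, and for mitosis they spread from 682 to 18650.5 CPM.

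Pooled over cells, the replication sum from primordial to secondary cells was 289.5, 2029.5, 3072 and 8097 CPM. On the log2 scale the ratio to primordial cells was 2.81 (interval 2.66 to 2.96) for transitioning, 3.41 (interval 3.27 to 3.55) for primary and 4.81 (interval 4.67 to 4.95) for secondary cells. When each cell was left out in turn these ratios ran from 1.47 to 3.89, 2.38 to 4.49 and 4.57 to 5.88. A single primordial cell gave 58.9% of the replication counts of its group, and the 2 primordial cells with several stroma markers together gave 65.4%. Without those 2 cells the ratio for secondary cells was 5.95. All 9 members passed the minimum of a mean of 10 CPM and all 9 were 2-fold or more higher in each of the later stages, where 28.5%, 32.3% and 34.3% of all genes that passed were 2-fold or more higher in transitioning, primary and secondary cells. The median log2 ratio of the 9 members was 2.67, 3.51 and 4.997, against -0.60, -0.097 and -0.059 over all genes tested.

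Secondary and primordial cells separated fully for *Mcm3*, *Mcm4* and *Mcm5*, subunits of the MCM helicase, which unwinds DNA at replication origins, and for *Pold1*. *Mcm3* (chr1:20802968-20820312) was found in 1 of 19 primordial cells, at 285 CPM, and in the secondary cells at 1142, 1354, 453, 510.5 and 1164 CPM, a log2 ratio of 4.91 (interval 4.50 to 5.37). *Mcm4* (chr16:15623897-15637400) was found in 3 of 19 primordial cells, at up to 191.7 CPM, and in the secondary cells at 1039, 762, 323, 1628 and 523 CPM, a log2 ratio of 4.997 (interval 4.56 to 5.46). Every secondary cell exceeded every primordial cell for both genes. *Mcm5* (chr8:75109569-75128439), whose window is printed above, reached 79.9 CPM in 3 of 19 primordial cells and stood at 1369.7, 1304, 143.7, 1422 and 705 CPM in the secondary cells, a log2 ratio of 6.69 (interval 5.99 to 7.50). The groups did not overlap here either. *Mcm7* (chr5:138164583-138172422) overlapped: 1 of the 3 primordial cells with reads reached 884 CPM, and the secondary cells held 1459, 3370.0, 313, 998 and 342 CPM, a log2 ratio of 3.73 (interval 3.51 to 3.96). With *Pold1*, 4 of the 9 replication members had every secondary cell above every primordial cell, and 0.409% of all genes that passed did so. No mitosis member separated in that way, and no member of either list did so between transitioning or primary and primordial cells, where 0 and 0.0541% of all genes did.

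Genes of the replication fork followed. *Pold1* (chr7:44532746-44548849), the catalytic subunit of DNA polymerase delta, had no reads in 19 primordial cells, which allows a share of up to 15.8% of cells with reads (3 of 19). It had reads in 5 of 8 transitioning cells and stood at 0, 0, 838, 510.4 and 0 CPM in the primary and 506, 1157, 208.4, 2299 and 21.4 CPM in the secondary cells. Against the floor of 3 counts over the group, the secondary level was at least 498-fold higher. *Pole* (chr5:110286306-110337474), its counterpart in DNA polymerase epsilon, was at 157.001, 0, 460.0, 160.5 and 42.7 CPM in the secondary cells and in 3 of 19 primordial cells at up to 86.03 CPM. Its highest transitioning cell, at 1261 CPM, exceeded every secondary one. *Pcna* (chr2:132249162-132253314), the sliding clamp, was the replication member found in most primordial cells, 6 of 19, at up to 335 CPM, and the secondary cells held 555, 701, 145.7, 1226 and 389.6 CPM. Its pooled level was 54.3, 259, 259 and 649 CPM from primordial to secondary, a log2 ratio of 3.58 (interval 3.26 to 3.92) for the last against the first. In thinned cells, each drawn down to 12000 counts, *Pcna* was still found in 5 of 5 secondary and in 4 of 19 primordial cells.

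*Rrm2* (chr12:24708241-24714146), the small subunit of ribonucleotide reductase, which makes the deoxynucleotides for replication, was found in 1 primordial cell at 1999 CPM and in the secondary cells at 1459.9, 2171, 3.59, 1414 and 406 CPM. Secondary cell 3 was almost without it. The log2 ratio was 5.19 (interval 4.80 to 5.604), and it was 4.77 to 9.33 when each cell was left out. *Cdt1* (chr8:122568015-122573554), which loads the MCM helicase onto origins, was at 834, 610.1, 0, 398 and 694 CPM, absent from the same cell 3, and found in 1 primordial cell at 8.55 CPM. Among the replication members the secondary level per kilobase of exon was highest for *Rrm2*, at 465 CPM, followed by *Mcm7* at 355, *Mcm5* at 271 and *Pcna* at 270.5 CPM, and it was lowest for *Pole*, at 14.99 CPM. The values in transitioning and primary cells rested on few cells: after leaving out any 1 cell, 5 of the 9 members stayed past 2-fold in transitioning cells (*Mcm5*, *Pcna*, *Pold1*, *Pole*, *Cdt1*), 6 of 9 in primary cells (*Mcm3*, *Mcm5*, *Mcm7*, *Pcna*, *Pold1*, *Cdt1*) and 9 of 9 in secondary cells. How many of all genes stay past 2-fold by this rule was not computed, so these counts have no background beside them.

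The mitosis sum was also higher in the later stages of plate 1, by less than the replication sum, and in transitioning and primary cells through 1 cell each. Summed over the 9 listed members, 12 of 19 primordial cells were at 0 and the highest reached 10569.6 CPM. Transitioning cells ran from 0 over 528 to 4513 CPM. The 5 primary cells held 1025, 0, 539.9, 9998 and 1085 CPM. A single cell stood far above its group there. The 5 secondary cells held 682, 1717, 18650.5, 2661 and 4312 CPM, again with 1 cell far above the others, and the groups overlapped throughout. Pooled, the sums were 1226, 2215, 3364 and 5109 CPM, with log2 ratios to primordial cells of 0.85 (interval 0.77 to 0.94), 1.46 (interval 1.38 to 1.54) and 2.06 (interval 1.99 to 2.13). With each cell left out in turn the ratios ran from -0.22 to 2.30, from -0.73 to 2.91 and from 0.60 to 3.51, so that for transitioning and primary cells 1 cell decided the sign. These were transitioning cell 3, without which the ratio was -0.22, and primary cell 4, without which it was -0.73 and which held 0.256% of its counts on oocyte markers. Without the cells that held over 0.1% of oocyte transcripts the ratio was -1.12 for primary and 1.67 for secondary cells, and without those with stroma markers it was 2.68 and 3.29.

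All 9 mitosis members passed the minimum, and 4, 7 and 9 of them were 2-fold or more higher in transitioning, primary and secondary cells, beside the 28.5%, 32.3% and 34.3% of all genes. A single member, *Bub1b*, was 2-fold or more lower in transitioning cells, as were 44.8% of all genes, and none was in primary and secondary cells, where 36.7% and 37.1% of all genes were. The median log2 ratio of the 9 was 0.43, 1.74 and 1.70. Leaving out any 1 cell kept 2 of the 4 higher members in transitioning cells past 2-fold (*Ccnb2* and *Aurka*), 3 of 7 in primary cells (*Ccnb2*, *Aurka* and *Plk1*) and 4 of 9 in secondary cells (*Ccnb1*, *Aurka*, *Aurkb* and *Bub1b*). No share of all genes was computed for this rule.

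**Figure D2:**
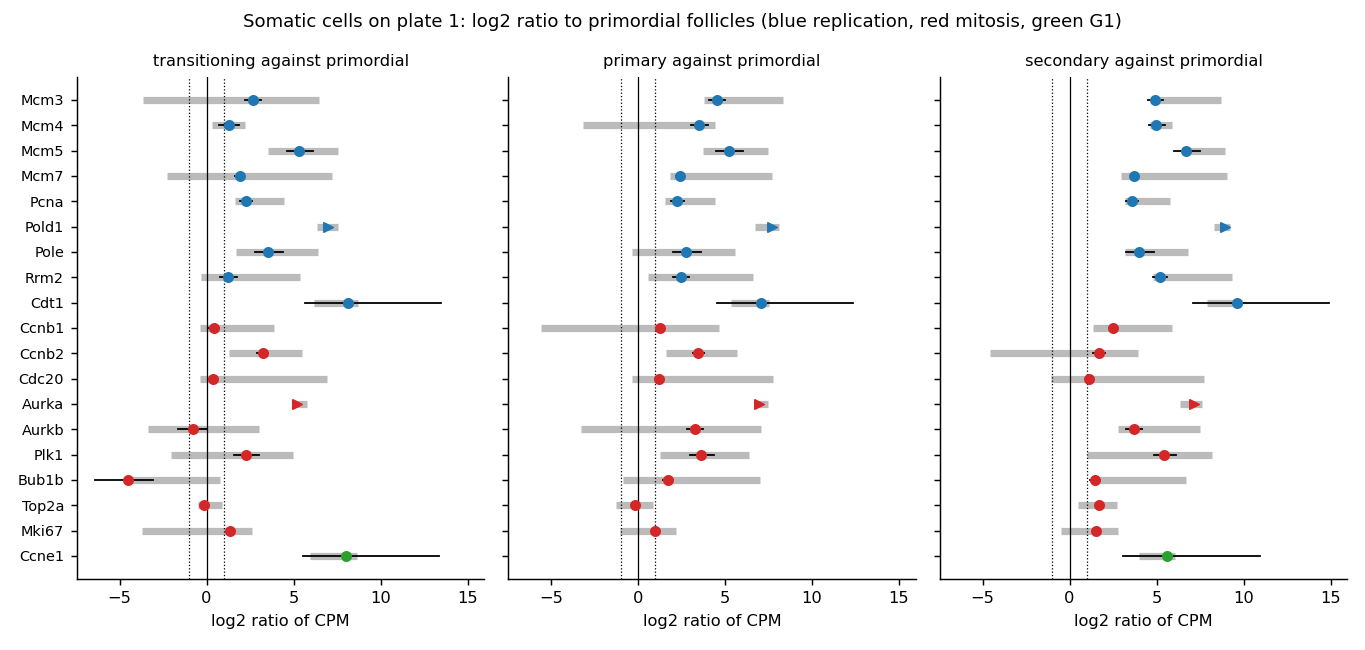
Log2 ratio to primordial somatic cells on plate 1 for each replication and mitosis member, in 3 panels for transitioning, primary and secondary cells. Points are pooled ratios, triangles lower bounds against a floor of 3 counts, black lines 95% counting intervals, grey bars the range when each cell is left out in turn, and dotted lines mark 2-fold. In secondary cells all replication members stay above 2-fold over the whole grey bar, and the bars of *Ccnb2*, *Cdc20* and *Mki67* cross 0.

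Among the mitotic cyclins, *Ccnb1* (chr13:100778650-100786570), which encodes cyclin B1, the partner of Cdk1 at entry into mitosis, was found in 3 of 19 primordial cells at up to 1292 CPM. In the secondary cells it stood at 148.9, 646, 2727, 349.9 and 278 CPM, a log2 ratio of 2.47 (interval 2.27 to 2.68). All 5 held it, and the highest primordial cell exceeded 4 of them. *Ccnb2* (chr9:70407692-70421547), for cyclin B2, was at 666, 0, 0, 1920.5 and 337 CPM in the primary and 0, 0, 1042, 0 and 0 CPM in the secondary cells, so that its secondary level came from 1 cell. *Cdc20* (chr4:118432901-118437352), an activator of the anaphase-promoting complex, was at 0, 65.5, 1937, 299 and 0 CPM in the secondary cells, and the 1979 CPM of the only primordial cell with reads lay above all of them.

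The mitotic kinases had reads in at most 2 of 19 primordial cells. *Aurka* (chr2:172356190-172370535), the spindle pole kinase, had no reads in the 19 primordial cells and stood at 0, 340.4, 801, 0 and 598 CPM in the secondary cells, at least 145.02-fold higher than the floor. *Aurkb* (chr11:69045647-69051664), the kinase of the chromosomal passenger complex, was in 1 primordial cell at 289 CPM and in the secondary cells at 0, 191.2, 1164, 552 and 0 CPM, a log2 ratio of 3.69 (interval 3.26 to 4.15). *Plk1* (chr7:122159439-122169873), a kinase acting through mitosis, was at 0, 0, 3141, 105.9 and 0 CPM. A single secondary cell thus carried 96.4% of the *Plk1* counts of its stage, and the log2 ratio of 5.45 (interval 4.85 to 6.14) was 0.99 without it. *Bub1b* (chr2:118598211-118641591), of the spindle checkpoint, drew the smallest part of its secondary counts from 1 cell among the mitosis members, 34.8%, and stood at 311, 0, 367, 221.5 and 469.9 CPM in the secondary cells, and in a single primordial cell it reached 787 CPM.

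*Top2a* (chr11:98992943-99024189), the topoisomerase that disentangles sister chromatids, and *Mki67* (chr7:135689784-135716361), the proliferation antigen Ki-67, were high in a few primordial cells. *Top2a* was found in 3 of 19 primordial cells, 1 of them at 6488 CPM, and stood at 221.97, 474, 4654, 838 and 1920.1 CPM in the secondary cells, a log2 ratio of 1.67 (interval 1.54 to 1.80). The highest cell of all was primordial. *Mki67* was found in 2 of 19 primordial cells, at up to 3882 CPM, and stood at 0, 0, 2817, 295 and 1047 CPM in the secondary cells. In transitioning and primary cells the log2 ratio of *Top2a* was -0.16 and -0.17. The primordial cell highest in both, cell 15, had a total count of 54874 and no reads of any replication member. It had reads of 2 stroma markers and 0.0674% of its counts on granulosa markers, where the median of the 19 primordial cells was 0.452%.

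Within each stage of plate 1, the somatic cell richest in mitosis transcripts was not the one richest in replication transcripts. Secondary cell 3, with 18650.5 CPM of mitosis transcripts from all 9 members, had the lowest replication sum of its group, 2050.3 CPM. Secondary cells 1 and 2, with 8522 and 11429 CPM of replication transcripts, held 682 and 1717 CPM of mitosis ones. Cell 5 was level, at 4287 and 4312 CPM. Among primary cells, cell 3 had 6635 CPM of replication transcripts from 9 members and 539.9 CPM of mitosis ones from 2, and cell 4 had 1552 CPM from 8 and 9998 CPM from 9. Transitioning cell 6 held 6083 CPM of replication and 52.2 CPM of mitosis transcripts, and transitioning cell 3 the reverse, 27.7 and 4513 CPM. A primordial cell was divided likewise, cell 1, which held 7731 CPM of mitosis transcripts from 8 members and 178.2 CPM of replication ones. That cell had reads of 5 stroma markers and 0.00492% of its counts on granulosa markers, the lowest share of its group. Over the 37 somatic cells of plate 1, the number of replication members with reads and that of mitosis members had a Spearman correlation of 0.583, given as a description, since each was also correlated with the total count of the cell, both at 0.672. Plate 3, with 3 replication and 10 mitosis members listed, held both patterns among its 22 transitioning cells. Its cell 21 had the highest replication sum, 4804 CPM, and 8416 CPM of mitosis transcripts from 10 members. Its cell 15 had the highest mitosis sum, 10967 CPM, and 212.8 CPM of replication transcripts.

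**Figure D3:**
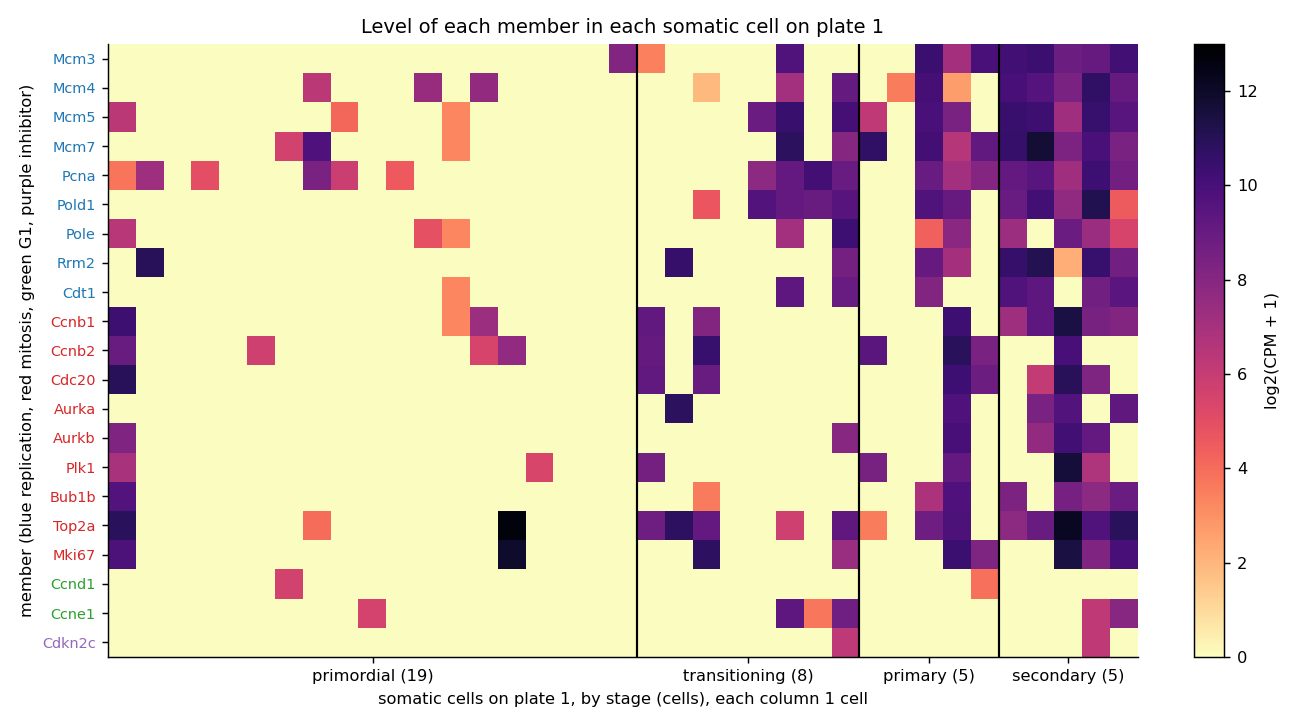
CPM of each replication and mitosis member in each somatic cell of plate 1, as shading on a log scale, with cells in columns ordered by follicle stage and genes in rows. Secondary cell 3 is dark across all 9 mitosis members, the other secondary cells mainly across the replication members, and the primordial columns hold few shaded genes, with 5 of the 19 empty for replication and mitosis members.

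Cells with reads of 3 or more replication members numbered 3 of 19 primordial, 3 of 8 transitioning, 3 of 5 primary and 5 of 5 secondary, so that the share in primordial cells was 15.8% (interval 3.38 to 39.6%) and that in secondary cells 100% (interval from 47.8%). For mitosis members the numbers were 2 of 19, 3 of 8, 3 of 5 and 5 of 5. Both lists at once reached 3 members in 1 of 19 primordial, 1 of 8 transitioning, 2 of 5 primary and 5 of 5 secondary cells. On plate 1 primordial cells had the lowest median depth of the 4 stages. The 2 of them with reads of 3 or more stroma markers held 65.4% of the replication and 67.4% of the mitosis counts of their group. Primordial cell 15, with the highest mitosis sum and reads of 2 stroma markers, is not among them.

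Of the G1 members and inhibitors on plate 1, *Ccne1* alone passed the minimum, in transitioning and in secondary against primordial cells. *Ccne1* (chr7:38097984-38107534), for cyclin E1, which acts with Cdk2 at the start of replication, was found in 1 of 19 primordial, 3 of 8 transitioning, 0 of 5 primary and 2 of 5 secondary cells, at 0.655, 172.5, 0 and 32.1 CPM. The primordial level rests on 1 count, and the log2 ratio to it was 8.04 (interval 5.54 to 13.35) for transitioning and 5.61 (interval 3.06 to 10.95) for secondary cells, past 2-fold with any 1 cell left out. A single transitioning cell gave 82.2% of its counts there. *Ccnd1*, for cyclin D1, had reads in 2 of the 37 somatic cells, and the inhibitor gene *Cdkn2c*, for p18, likewise in 2.

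On plate 5 the G1 kinase gene *Cdk4* was lower in primordial than in primary and secondary cells. *Cdk4* (chr10:127063534-127067920), which encodes the partner of the D-type cyclins, had reads in 19 of 21 primordial, 19 of 19 primary and 26 of 26 secondary cells. In the order of primordial, primary and secondary cells, its lowest, median and highest cells held 0, 812 and 2865 CPM, 577, 3218 and 6343 CPM, and 573, 2482 and 4630.2 CPM. No primary or secondary cell was without it, and the groups overlapped. The pooled level was 863 CPM (interval 813 to 915), 2804 CPM (2688 to 2924) and 2778 CPM (2685 to 2873), with log2 ratios to primordial cells of 1.70 (interval 1.595 to 1.81) and 1.69 (interval 1.59 to 1.79). With each cell left out the ratios stayed within 1.51 to 1.87 and 1.496 to 1.86. Between secondary and primary cells the ratio was -0.013 (interval -0.091 to 0.065). Over all genes tested the median log2 ratio on this plate was 0.42 for primary and 0.39 for secondary against primordial cells, and scaling by TMM shifted every log2 ratio to primordial cells by -0.49 and -0.37, which leaves *Cdk4* past 2-fold in both.

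Of the 9 members listed on plate 5 all passed the minimum between primary and primordial cells, and 5 were 2-fold or more higher in primary cells (*Mcm2*, *Ccnb2*, *Ccne2*, *Cdk4* and *Cdkn2c*) with 34.5% of all genes, and 1 was lower (*Ccnd1*) with 23.2%. After TMM scaling *Mcm2* and *Ccnb2*, at 0.82 and 0.95, were no longer past 2-fold, which leaves 3 higher. The shares of all genes in this paragraph are those before scaling, and none was computed after it. Between secondary and primordial cells 8 passed, 3 were higher (*Ccnb2*, *Ccne2* and *Cdk4*) with 31.3% of all genes and 2 lower (*Ccnd1* and *Ccnd3*) with 19%, and after TMM scaling *E2f1* was lower too, at -1.20. Between secondary and primary cells 0 of 9 were higher, where 24% of all genes were, and 4 were lower (*Mcm2*, *Ccnd1*, *Ccnd3* and *Cdkn2c*), where 21% were. After TMM scaling *Mcm2* and *Ccnd1* fell short of 2-fold there, at -0.97 and -0.99, and *Ccnb2* was higher, at 1.01. After leaving out any 1 cell, *Mcm2*, *Ccne2* and *Cdk4* stayed past 2-fold in primary and *Ccnb2*, *Ccne2* and *Cdk4* in secondary against primordial cells, and no member did so between secondary and primary cells. For all genes this was not computed. Reads of 3 or more stroma markers were found in 8 of 21 primordial, 3 of 19 primary and 4 of 26 secondary cells of this plate, and over 0.1% of counts lay on oocyte markers in 13 of 21, 0 of 19 and 1 of 26.

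**Figure D4:**
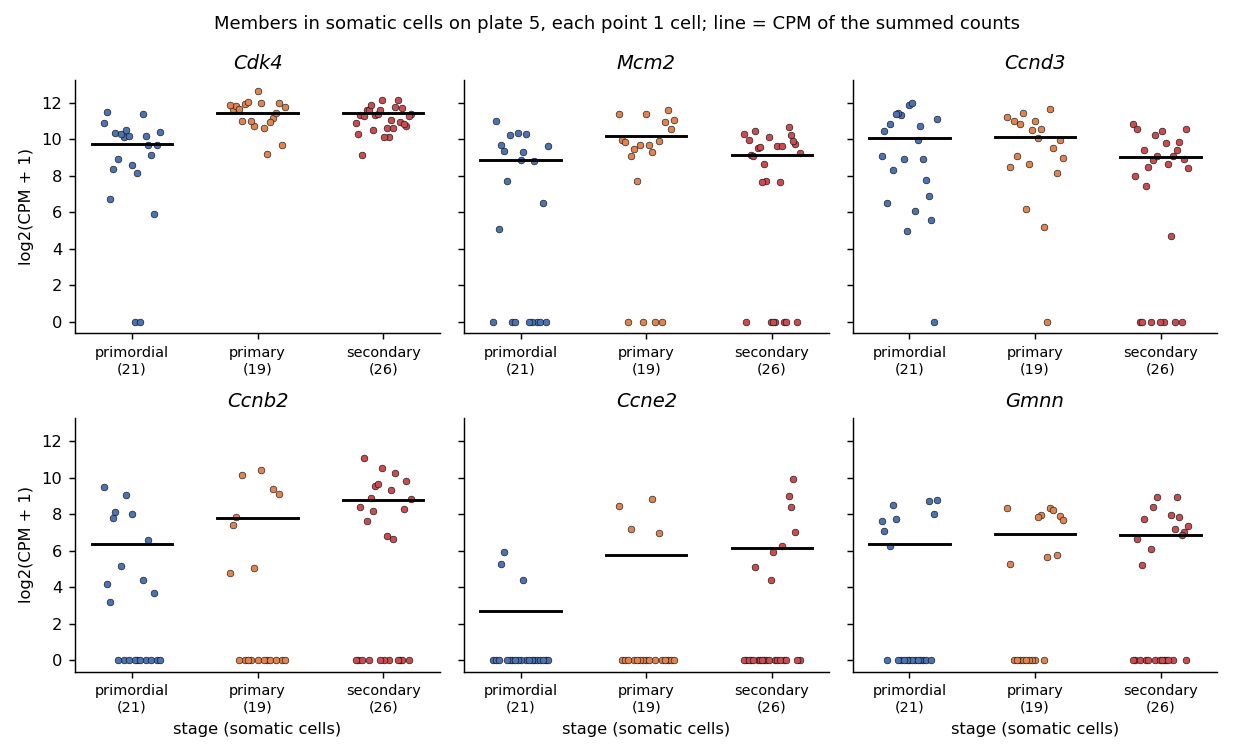
CPM of *Cdk4*, *Mcm2*, *Ccnd3*, *Ccnb2*, *Ccne2* and *Gmnn* in each primordial, primary and secondary somatic cell of plate 5, on a log axis that is linear near 0. Each point is 1 cell, and bars mark the pooled level. *Cdk4* is present in every primary and secondary cell, *Ccnd3* in most cells of all 3 stages, and the other genes drawn in part of the cells.

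The cyclin genes of G1 differed among themselves. *Ccnd3* (chr17:47505051-47599691), for cyclin D3, was found in 20 of 21 primordial, 18 of 19 primary and 19 of 26 secondary cells. In the order of primordial, primary and secondary cells, its lowest, median and highest cells held 0, 534 and 3995 CPM, 0, 1014 and 3237 CPM, and 0, 427 and 1816 CPM. The median of the primary cells was the highest and the groups overlapped, and pooled levels of 1079, 1108 and 527 CPM gave log2 ratios of 0.039 (interval -0.085 to 0.16) for primary and -1.03 (interval -1.17 to -0.90) for secondary against primordial cells. *Ccne2* (chr4:11191351-11204779), for cyclin E2, rested on few cells, 3 of 21, 4 of 19 and 8 of 26, with pooled levels of 5.46, 52.6 and 68.7 CPM and log2 ratios of 3.27 (interval 2.10 to 4.67) and 3.65 (interval 2.55 to 5.01). *Ccnd1* (chr7:144929931-144939925) was in 4 of 21, 4 of 19 and 5 of 26 cells, and 1 primordial cell gave 89.2% of the counts behind its level of 72.4 CPM. Without that cell the ratio changed sign in both comparisons with primordial cells. *E2f1* (chr2:154559407-154569892), an activator of replication genes, was low at every stage, at 20.3, 15.4 and 11.5 CPM.

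The replication members of plate 5 were highest in primary cells. *Mcm2* (chr6:88883474-88898780), a further MCM subunit, had reads in 13 of 21 primordial, 15 of 19 primary and 19 of 26 secondary cells. In the order of primordial, primary and secondary cells, its lowest, median and highest cells held 0, 208.4 and 2016 CPM, 0, 815 and 3109.9 CPM, and 0, 592 and 1636 CPM. All groups held cells without it, and the highest cells were primary. The pooled levels were 458, 1138 and 561 CPM, with log2 ratios to primordial cells of 1.31 (interval 1.16 to 1.46) and 0.29 (interval 0.13 to 0.45). After TMM scaling these were 0.82 and -0.080. *Gmnn* (chr13:24751845-24761923), for geminin, which blocks Cdt1 after origins have fired, stood at 81.1, 118.03 and 113.7 CPM, within 2-fold at every stage. Of the mitosis members plate 5 lists *Ccnb2*, which had reads in 11 of 21 primordial, 8 of 19 primary and 15 of 26 secondary cells. In the order of primordial, primary and secondary cells, its lowest, median and highest cells held 0, 8.21 and 705 CPM, 0, 0 and 1374 CPM, and 0, 152.6 and 2144 CPM. Its highest cells were secondary, and pooled levels of 81.9, 223.2 and 434 CPM gave log2 ratios to primordial cells of 1.45 (interval 1.09 to 1.81) and 2.41 (interval 2.10 to 2.72). Without the cells that held over 0.1% of oocyte transcripts these were 2.56 and 3.48, and the ratios of *Mcm2* and *Gmnn* summed went from 1.22 and 0.32 to 1.97 and 1.05. Without the cells with stroma markers the latter were 1.63 and 0.75. The inhibitor gene *Cdkn2c* had reads in 1 of 21, 2 of 19 and 2 of 26 cells.

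Plate 3 holds 22 transitioning somatic cells and lists 10 mitosis members, the most of any plate. Reads of at least 1 of these were found in 21 of 22 cells and of 3 or more in 18 of 22, and all 22 cells had reads of at least 1 of the 3 replication members listed. Over 0.1% of counts lay on oocyte markers in 17 of the 22 cells, with 0.205% of their summed counts, and the part of oocyte transcripts in these levels was not tested. *Cdk1*, the kinase that drives mitosis, stood at 592 CPM in 15 of 22 cells, and *Mki67* at 781 CPM in 14 of 22. *Ccna2*, for cyclin A2, which acts in replication and early mitosis, was at 395 CPM in 10 of 22, *Ccnb1* at 469.7 CPM in 10 of 22 and *Ccnb2* at 262 CPM in 15 of 22. *Birc5*, for survivin of the chromosomal passenger complex, was the mitosis member found most often, in 19 of 22, at 393 CPM. The checkpoint kinase genes *Bub1* and *Bub1b* and the Aurora kinase genes *Aurka* and *Aurkb* ranged from 94.8 to 246 CPM. *Rrm1*, the large subunit of ribonucleotide reductase, was present in all 22 cells, with a lowest, median and highest of 3.35, 351 and 3601 CPM, and *Rrm2* in 11 of 22, at 449.6 CPM. *Pole* was at 167.8 and *Ccne1* at 110.1 CPM, the latter in 3 of 22 cells.

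The other plates hold 1 stage each but for a single cell. On plate 4, *Ccnd2* (chr6:127125162-127152193), for cyclin D2, a D-type cyclin known for its role in granulosa cells, was present in all 16 transitioning cells, with a lowest, median and highest of 1759.8, 3899 and 7809 CPM. None of those cells was near 0. On plate 6 the MCM gene *Mcm6* was present in all 11 secondary cells, at 62.5, 980.0 and 5679 CPM, and *Cdk2*, the kinase of cyclin E, and *Tyms*, for thymidylate synthase, in 8 of 11 each, at 485 and 515 CPM. Over 0.1% of counts lay on oocyte markers in 10 of those 11 cells, with 0.458% of their summed counts, and the oocytes of plate 6 held *Mcm6* at 937 CPM. The part of oocyte transcripts in the secondary levels was not tested. On plates 2 and 4, 0 of 32 and 0 of 16 cells were over that limit. *Cdc6*, which helps to load the MCM helicase, was at 427 CPM in 4 of 11, and 1 cell gave 63.6% of those counts. Of the inhibitors of cyclin-dependent kinases, *Cdkn1b*, for p27, had reads in 24 of 32 primary cells of plate 2, at 310.4 CPM. *Cdkn1a*, for p21, had reads in 1 of 11 secondary cells of plate 6, and *Cdkn1c*, for p57, in none, which allows a share of up to 27.3% (3 of 11). On plate 2 the mitosis members *Ccnb2* and *Birc5* stood at 1038 and 426 CPM in 13 of 32 and 14 of 32 primary cells.

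*Ccnb2* and *Cdkn2c* could be followed over all 6 plates, as CPM of the genes that every plate lists. *Ccnb2* had reads in 15 of 40 primordial, 20 of 47 transitioning, 24 of 56 primary and 22 of 42 secondary somatic cells, shares of 37.5% (interval 22.7 to 54.2%), 42.6%, 42.9% and 52.4% (36.4 to 67.996%). Those intervals overlap. Its pooled level was 158.5, 601, 1784 and 911 CPM, lowest in primordial cells, so that the stages differed more in the level than in the share of cells. Stage and plate cannot be told apart in these sums, since the transitioning cells come mostly from plates 3 and 4 and the primary cells from plates 2 and 5. *Cdkn2c* was found in 1 of 40, 1 of 47, 5 of 56 and 4 of 42 somatic cells.

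The oocytes, which are arrested in meiosis and do not divide, also held transcripts of most members. On plate 1 all 13 oocytes had reads of 3 or more replication members and 12 of 13 of 3 or more mitosis members. Pooled over stages, the replication sum of somatic cells against oocytes had a log2 ratio of 0.88 (interval 0.84 to 0.93) and the mitosis sum one of 0.63 (interval 0.59 to 0.67), and as means over single cells the ratios were -0.16 and 0.036. Of 19 members that passed, 9 were 2-fold or more higher in somatic cells, where 37.9% of all genes were, and 2 lower, where 25.9% were. The highest ratios were those of *Rrm2*, *Top2a* and *Mki67*, at 3.05, 2.89 and 2.73, and *Pole* was lower, at -1.16. The G1 genes divided further. *Ccnd2* on plate 4 stood at 4293 CPM in somatic cells and 3.05 CPM in oocytes, a log2 ratio of 10.46 (interval 9.58 to 11.52), and *Cdk4* on plate 5 at 2036 and 100.9 CPM, a log2 ratio of 4.33 (interval 3.99 to 4.70). *Ccne2* was lower in somatic cells on plate 5, at -1.79, and *E2f1* lower on plates 2, 5 and 6, at -3.14, -2.55 and -1.84.

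*Birc5* showed the widest gap on the oocyte side: 426 CPM in somatic cells against 3741 CPM in oocytes on plate 2, and 225.6 against 2649 CPM on plate 4, log2 ratios of -3.13 (interval -3.21 to -3.06) and -3.55 (interval -3.67 to -3.44). *Ccnb2* had reads in every one of the 59 oocytes, at 588 to 878 CPM by stage. On plate 2, with 3 of 6 members higher and 2 lower, the shares of all genes were 59.1 and 21.5%. On plate 4, 1 of 3 was higher and 2 lower, with 53.7 and 23.1% of all genes. On plate 5, 2 of 8 were higher and 2 lower, with 48 and 23.3%. On plate 6, 5 of 9 were higher (*Mcm6*, *Cdc6*, *Cdk2*, *Cdkn1a* and *Cdkn2c*) and 3 lower, with 51.7 and 24.1%. The shares of members higher were thus near or below those of all genes on these 4 plates. TMM scaling shifted the log2 ratios to oocytes by -0.24 on plate 1, -1.19 on plate 2, -0.76 on plate 4, -0.14 on plate 5 and -0.82 on plate 6.

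**Figure D5:**
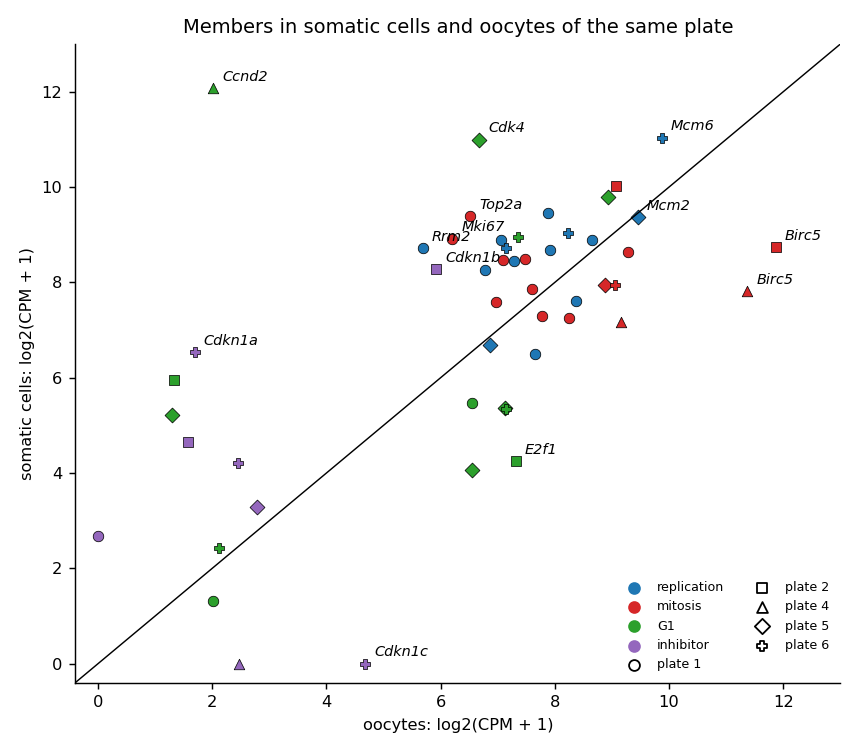
Pooled level of each listed member in somatic cells against that in oocytes of the same plate, for plates 1, 2, 4, 5 and 6. Both axes are log2 of CPM plus 1, colors mark the role and symbols the plate. The diagonal line marks equal levels. *Ccnd2* (log2 ratio 10.46) and *Cdk4* (4.33) lie far to the somatic side of the line and *Birc5* (-3.13 and -3.55) and *E2f1* to the oocyte side.

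Other genes of the same processes, from lists drawn up with the members, were read on plates 1 and 5 in the same way. Of 30 other replication genes plate 1 lists 16. By 2-fold or more, 8 of 13 were higher and 3 lower in transitioning, 10 of 16 higher and 1 lower in primary and 13 of 16 higher and 0 lower in secondary against primordial cells, beside 28.5%, 32.3% and 34.3% of all genes higher and 44.8%, 36.7% and 37.1% lower. Their median log2 ratios were 1.73, 2.21 and 2.88. The 5 genes with most counts are given from primordial to secondary cells. *Uhrf1*, which maintains DNA methylation behind the fork, stood at 97.6, 379, 866 and 973 CPM and *Nasp*, a histone chaperone, at 43.2, 184.7, 343 and 861 CPM. These 2 were highest in secondary cells, and the next 2 in primary cells. *Slbp*, which binds histone transcripts, stood at 184.5, 351, 500.3 and 244.7 CPM and *Dut*, which keeps uracil out of DNA, at 129.7, 255, 316 and 268 CPM. *Rpa1*, which coats single-stranded DNA, is listed on plate 5, at 458, 694 and 331 CPM in primordial, primary and secondary cells. On plate 5, 3 of 8 were higher and 0 lower in primary and 2 of 8 higher and 0 lower in secondary cells, beside 34.5% and 31.3% of all genes higher. Shares of 23.2% and 19% of all genes were lower there.

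Of 40 other mitosis genes plate 1 lists 24, with 12 of 23 higher and 3 lower in transitioning, 13 of 24 higher and 5 lower in primary and 13 of 23 higher and 4 lower in secondary cells, beside the same shares of all genes. Their median log2 ratios were 1.26, 1.17 and 1.24. Summed over the listed genes, the log2 ratios to primordial cells were 1.32, 0.544 and 0.882. With each cell left out in turn these ran from -0.214 to 2.08, from -1.998 to 1.303 and from -0.429 to 1.641. In each comparison 1 cell thus decided the sign of the summed ratio. The levels of these genes did not follow 1 order. *Cenpf*, of the kinetochore, was at 625, 917, 310.2 and 224.4 CPM, *Cdca8*, of the chromosomal passenger complex, at 109.4, 1151, 312 and 326 CPM, and *Incenp*, the scaffold of that complex, at 146.8, 87.6, 150.6 and 133.1 CPM. On plate 5, 1 of 11 were higher and 0 lower in primary and 5 of 11 higher and 0 lower in secondary cells, with 34.5% and 31.3% of all genes higher and 23.2% and 19% lower. There *Tacc3*, a spindle protein, stood at 675, 535 and 468 CPM, *Ube2c*, which works with the anaphase-promoting complex, at 420.2, 232.2 and 505 CPM, and *Incenp* at 269, 387 and 400.0 CPM.

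Of 20 other regulators plate 1 lists 11, with 4 of 8 higher and 4 lower in transitioning, 1 of 5 higher and 2 lower in primary and 4 of 8 higher and 2 lower in secondary cells, where 28.5%, 32.3% and 34.3% of all genes were higher. In the same order, 44.8%, 36.7% and 37.1% of all genes were lower. On plate 5, 1 of 4 were higher and 2 lower in primary and 1 of 4 higher and 3 lower in secondary cells, with 23.2% and 19% of all genes lower. There 34.5% and 31.3% of all genes were higher. *Btg2*, an antiproliferative gene, stood at 1694, 265, 353 and 373 CPM on plate 1 and at 919, 421 and 226.6 CPM on plate 5. *Btg1*, of the same family, stood at 405, 95.1, 193.9 and 57.2 CPM and at 357, 192.4 and 133.4 CPM. Both were highest in primordial cells on both plates. *Gadd45a*, which is induced by stress, stood at 90.4, 38.5 and 15.5 CPM on plate 5. The activating E2F genes had other orders, with *E2f2* at 35.4, 112.8, 18.6 and 180.5 CPM on plate 1 and *E2f3* at 0, 156.6, 14.9 and 89.2 CPM there and at 30.4, 228.4 and 136.6 CPM on plate 5. Of the genes of the response to dissociation, 7 on plate 1 took 2.18% of counts in primordial cells and, by stage up to secondary ones, 0.598%, 1.15% and 0.694%. On plate 5, 6 of them took 1.26%, 1.30% and 0.904% in primordial, primary and secondary cells. Their part in the result was not tested.

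Reads shared with other genes bear on some of these values. The annotation has a gene of the other strand over 16 of the 40 members and one of the same strand over 6, and for 5 members it names pseudogenes after them. SMART-Seq2 does not keep the strand, and how shared reads were counted is not given in the sources used here.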

How the data were processed

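Single oocytes and follicle somatic cells were sequenced by SMART-Seq2 in 244 cells. The authors aligned reads to GRCm38 and used Seurat (v4), removing cells with few genes and cells that scored highly for the other cell type. The counter and its annotation are not given in the sources used here. The deposited table holds estimated counts per gene and cell, without molecular identifiers, and the deposited metadata of the cells hold fractions, such as the share of reads on ribosomal RNA. The 27 entries with a date in place of a gene name, with 0.0743% of counts, were left out.

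The 40 members and the other gene lists were chosen with earlier results of these data known. Members that passed the minimum on plate 1 or 5 are given with full values and the others by their levels on the plates that list them, and of the other lists the 5 genes with the highest pooled CPM are named. Groups were taken from the titles, and each cell type and stage on a plate is 1 sample, so no p-value was computed. For each group, the cells' counts of a gene were added up and scaled to those of all genes of the plate (CPM). A gene passed where the mean CPM of both groups was 10 or more and 1 group had over 3 counts, and was called at a ratio of 2-fold or more. A group at 0 was set to a floor of 3 counts, and ratios against it are bounds. Detection means an estimated count of at least 1. Intervals are exact, at 95%. On simulated counts for plate 1 (18533 genes, secondary against primordial) 100% of 200 genes changed 4-fold were recovered and 96.5% of intervals held the true ratio, and on plate 5 (16710 genes) 99.5% and 95.5%. The simulated counts of a group varied by counting error alone. These shares therefore check the calculation and do not measure how far differences between cells move a ratio.

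Alternatives were TMM (edgeR 4.0.16) and median-of-ratios (DESeq2 1.42.0) factors, means of single-cell CPM, thinning to 12000 counts, other minimums and detection thresholds, and leaving out each cell, cells with stroma or oocyte transcripts and cells with conflicting stage labels. Python 3.11.15 with pandas 2.3.3, numpy 2.4.6, scipy 1.17.1 and matplotlib 3.10.9, and R 4.3.3, were used. Promoter windows came from RefSeq (GRCm38.p6).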

Additional observations from a re-analysis of the deposited data

Results flagged for a closer look

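In 17 groups of 4 to 10 cells, the summed level of the replication or the mitosis members was examined for a cell far from the others of its group, by the gap to its neighbour over the range of the group, and 4 groups held such a cell. The limits used mark about 5% of groups by chance where the values follow a normal distribution. Summed levels of single cells are skewed, so the share that chance marks here is not known. Primary somatic cell 4 of plate 1 was far above the other primary cells for mitosis members, at 9998 CPM. Secondary somatic cell 3 of plate 1 was far above the other secondary cells for mitosis members, at 18650.5 CPM. Primary somatic cell 3 of plate 1 was far above the others for replication members, at 6635 CPM. On plate 5, oocyte 6 of secondary follicles was far below the other 4 oocytes for *Ccnb2*, the only mitosis member listed, at 233.1 CPM.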

How the results depend on the processing

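No paired analysis was possible because each cell was taken once and the cell numbers of the labels do not tie cells of different groups to each other. In all comparisons below the value is the log2 ratio to primordial cells of the summed members unless said otherwise, and the cause of a change was not tested. Leaving out each cell in turn gave, for replication members on plate 1, 1.47 to 3.89 for transitioning cells, 2.38 to 4.49 for primary and 4.57 to 5.88 for secondary ones, and on plate 5 1.05 to 1.45 in primary and 0.15 to 0.55 in secondary cells, with -1.01 to -0.75 for secondary against primary cells. For mitosis members it gave -0.22 to 2.30, -0.73 to 2.91 and 0.60 to 3.51 on plate 1, and 0.85 to 1.94, 2.11 to 2.90 and, for secondary against primary cells, 0.66 to 1.56 on plate 5. Without cells with reads of 3 or more stroma markers, the replication ratio was 3.95 (transitioning), 4.55 (primary) and 5.95 (secondary) on plate 1 and 1.63 (primary) and 0.75 (secondary) on plate 5, and the mitosis ratio was 2.08 (transitioning), 2.68 (primary) and 3.29 (secondary) on plate 1. Without cells with over 0.1% of counts on oocyte markers, the replication ratio was 3.22 (transitioning) and 3.78 (primary) on plate 1 and 1.97 (primary) and 1.05 (secondary) on plate 5, and the mitosis ratio was 0.42 (transitioning), -1.12 (primary) and 1.67 (secondary) on plate 1 and 2.56 (primary) and 3.48 (secondary) on plate 5. Without the 2 cells with conflicting stage labels, the replication ratio was 2.62 (transitioning) and 3.61 (primary) on plate 1, and the mitosis ratio was 1.78 (primary) on plate 1. With every cell thinned to 12000 counts, the replication ratio was 3.004 (transitioning), 3.24 (primary) and 5.02 (secondary) on plate 1 and 0.98 (primary) and 0.072 (secondary) on plate 5, and the mitosis ratio was 0.55 (transitioning), 1.22 (primary) and 2.49 (secondary) on plate 1 and 1.09 (primary) and 1.93 (secondary) on plate 5. As means of single-cell CPM, the replication ratio was 3.07 (transitioning) on plate 1 and 1.07 (primary) on plate 5, and the mitosis ratio was 0.58 (transitioning), 1.37 (primary) and 2.52 (secondary) on plate 1 and 1.08 (primary) and 1.92 (secondary) on plate 5. With TMM factors, the replication ratio was 0.73 (primary) and -0.049 (secondary) on plate 5, and the mitosis ratio was 0.95 (primary) and 2.04 (secondary) on plate 5. With median-of-ratios factors, the replication ratio was 0.73 (primary) and -0.030 (secondary) on plate 5, and the mitosis ratio was 0.96 (transitioning) on plate 1 and 0.96 (primary) and 2.05 (secondary) on plate 5. As means of single-cell CPM the ratio of *Mki67* in transitioning cells of plate 1 changed sign to -0.057, and against oocytes the replication ratio was -0.16 on plate 1 and the mitosis ratio 0.036 on plate 1, -1.46 on plate 2 and -3.52 on plate 4. The members past 2-fold on plate 5 numbered 3, 3 and 2 with a minimum of 50 CPM in primary against primordial, secondary against primordial and secondary against primary cells, and 1 in the last as means of single-cell CPM. Of the primordial cells of plate 1, 0 had reads of 5 or more replication members. With a count of at least 5 as detection, the share of primordial cells with any mitosis member was 15.8% on plate 1 and 28.6% on plate 5. The replication ratio to primordial cells on plate 1 was positive under every alternative run, leaving out single cells included. With 5 primary and 5 secondary cells on plate 1 a single cell can set a level.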
